A study of Mus musculus with 6 samples.

Results

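The genes described here are 10 members of the Hippo pathway and its output: the coactivators Yap1 and Wwtr1, the DNA-binding factors Tead1, Tead2 and Tead3, the kinases Lats1 and Lats2, and the target genes Ctgf, Cyr61 and Amotl2. They were taken by gene symbol, and all 10 were found among the 23718 genes of the deposited table. RNA was sequenced from the incisor of mice 1 month old, a tooth that keeps growing through life because stem cells at its base replace the tissue. Mesenchymal stem cells (MSCs) were represented by 3 samples from Gli1-CreER;tdT mice and transit amplifying cells (TACs), their dividing progeny, by 3 samples from Axin2-CreER;tdT mice. In both lines a Cre recombinase that needs tamoxifen switches on the red reporter tdT where the Gli1 or Axin2 gene is active, and by the study's methods all mice had tamoxifen 1 day before collection, with 3 mice in a group. The labels give the strain as C57BL/6, while the methods speak of a mixed background. The cells were cut from sections by laser capture microdissection, so a sample holds the vessels, nerves and other cells of the captured region as well as labelled cells.

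In the Hippo pathway a kinase relay ends in LATS1 and LATS2, which phosphorylate YAP (Yap1) and its relative TAZ (Wwtr1) and keep them out of the nucleus. When the kinases are quiet, for example in spread cells on stiff matrix, YAP and TAZ enter the nucleus and bind TEAD proteins, which carry them to target genes. Because this switch acts on the proteins, transcript levels of Yap1 and Wwtr1 do not measure it, and the targets are commonly read as its output. The targets also answer to other inputs, among them transforming growth factor beta and serum response factor. In the growing incisor, YAP and TAZ are best known from the dental epithelium.

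The libraries differed in kind before any group difference. The estimated reads numbered 20203159 to 25567244 in the 4 libraries with replicate numbers 1 and 2, while MSC replicate 3 had 59793645 and TAC replicate 3 had 108156380. Mitochondrial ribosomal RNA made up 8.28% to 9.07% of those 4 libraries but 0.236% of MSC replicate 3 and 0.112% of TAC replicate 3. The proliferation gene Mki67 was 130 to 137 in MSC replicates 1 and 2 against 593 to 630 in TAC, and 41.5 against 122 in replicate 3. Gli1, at 245 to 422 in MSC and 141 to 396 in TAC, and Axin2, at 12.01 to 58.3 and 34.05 to 63.9, overlapped between the groups. Within each replicate number Gli1 was higher in MSC (unadjusted p 0.032 and adjusted p 0.203 with the replicate block in limma). Axin2 was higher in TAC in replicates 2 and 3 but not in replicate 1 (unadjusted p 0.130 and adjusted p 0.360 in the same fit). All 10 dental mesenchyme markers examined were measured. Differences between groups are written as log2 ratios, TAC over MSC, of the deposited value + 1, so that a ratio below 0 means less in TAC. They are also given apart for the pair of replicates 1 and 2 and for replicate 3, where 1 library a group gives no spread of its own. The methods give 3 mice a group and name 3 sample pairs but not what joins them, so p-values measure the spread between these samples.

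Of the 10 members, 1 passed the test between TAC and MSC. This was the YAP target Ctgf, lower in TAC. Over all genes tested, 0.422% passed in either direction (limma, Benjamini-Hochberg adjusted p under 0.05). The groups did not overlap for Ctgf, Tead2 and Tead3, each higher in MSC, or 3 of 10 members, where 24.5% of all genes had groups apart in either direction and 12.2% with MSC higher. At an unadjusted p under 0.05, 2 members were lower in TAC, Ctgf and Tead3, where 11.9% of all genes reached that level (6.43% lower and 5.42% higher in TAC). Of the log2 ratios, 9 of 10 were below 0, as were 7472 of 15391 genes. Among the 9, Yap1, Tead1, Lats2 and Amotl2 had opposite directions in replicate 3 and in the pair of replicates 1 and 2. The median of the 10 was -0.45 against 0.026 for all genes. Without TAC replicate 3 that median was 0.0016, and that of all genes 0.139. With the replicate number as a block, 1 member passed again, where 1.49% of all genes did, and 3 had an unadjusted p under 0.05, where 20.4% of all genes did and 10.9% with MSC higher.

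**Figure D1:**
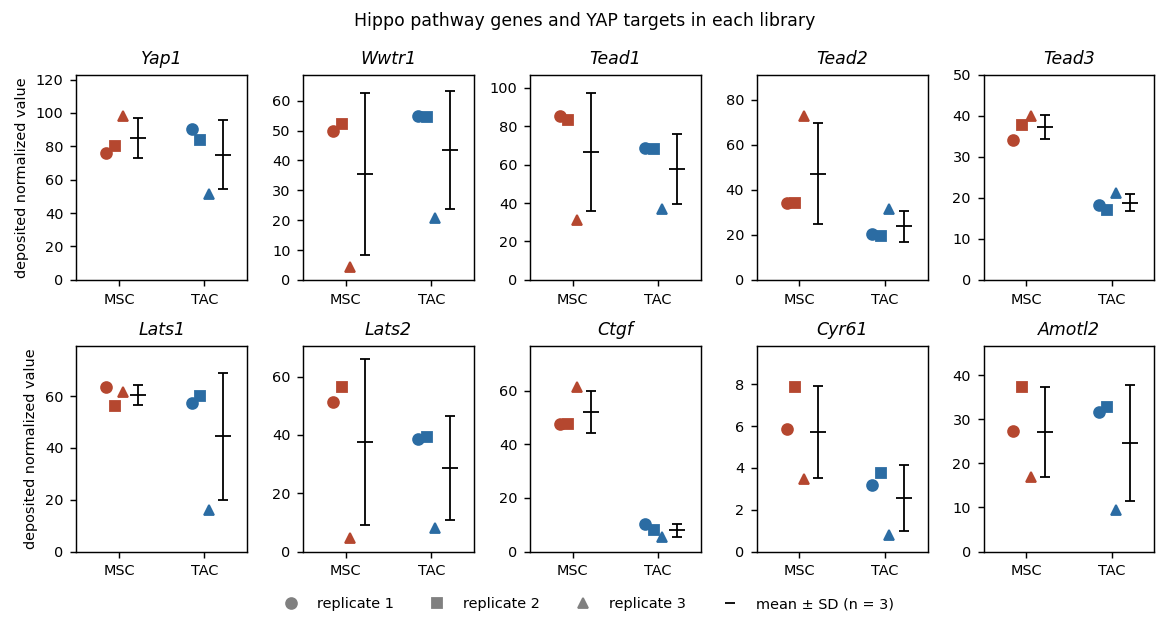
Deposited normalized value (vertical axis, from 0) of each gene in every MSC (red) and TAC (blue) library, with replicates 1, 2 and 3 as circles, squares and triangles and black bars for mean ± SD (n = 3). Ctgf, Tead2 and Tead3 are higher in all 3 MSC libraries than in any TAC library, and replicate 3 lies far below replicates 1 and 2 for Lats2 in both groups.

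Ctgf (now named Ccn2, chromosome 10, 24595442 to 24598683, plus strand, mm10) encodes a secreted matricellular protein of the CCN family that binds integrins and growth factors and is the target most often used to read YAP. Its normalized values, in the order of replicates 1, 2 and 3 that is kept throughout, were 47.8, 47.5 and 61.3 for MSC and 10.3, 7.93 and 5.49 for TAC. Every MSC library was thus far above every TAC library, and replicate 3 was at the outer end of both groups. Means of 52.2 ± 7.90 for MSC and 7.91 ± 2.40 for TAC (SD, n = 3 each) made Ctgf 6.60 times higher in MSC. On the log2 scale the ratio was -2.60 (SE 0.34, 95% interval -3.39 to -1.82, limma adjusted p 0.0389). The pair of replicates 1 and 2 gave -2.27 and replicate 3 gave -3.26, and the direction held in all 17 alternative fits. The log2 ratio stayed between -2.79 and -2.39 when any 1 library was left out, while the adjusted call was often lost. The adjusted p was 0.238 without MSC replicate 1, 0.239 without MSC replicate 2, 0.159 without TAC replicate 1, 0.202 without TAC replicate 2 and 0.0606 without TAC replicate 3, and it passed without MSC replicate 3, at 0.0367. In the first 4 of these fits 0 of all genes passed, with 1029 to 1362 at an unadjusted p under 0.05. In limma voom on the estimated reads and without the variance trend the adjusted p was 0.126 and 0.0733. The values rest on 330 to 9206 estimated reads. A noncoding gene on the other strand, Gm15270, shares 665 exonic bases with Ctgf, and its own value was 0.0316 to 9.95, which did not separate the groups, with the lowest values in replicate 3 of both groups.

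Some lists of cell type markers had the direction of Ctgf and others did not. Of 8 smooth muscle and pericyte markers 7 were tested and 5 of 7 were higher in MSC past the adjusted threshold, among them Tagln, an actin-binding protein of smooth muscle, Myh11, its myosin heavy chain, and the pericyte receptor Notch3. The summed level of the list ran from 831 to 1489 in MSC and from 88.6 to 126 in TAC, and the eighth marker, Des, stayed at 0.35 or less in every library. Of 8 endothelial markers none passed the adjusted threshold in limma and 3 had an unadjusted p under 0.05, Pecam1, Cdh5 and Esam, all higher in MSC. Their sum was 199 to 302 in MSC and 117 to 126 in TAC. All 8 proliferation markers had an unadjusted p under 0.05 toward TAC, and 1 of them, Cdk1, passed the adjusted threshold, with sums of 91.0 to 200.1 in MSC and 317 to 971 in TAC. All 7 dental epithelium markers tested had log2 ratios above 0, and 4 of them had all TAC values above all MSC values (12.3% of all genes did), although none passed the adjusted threshold in limma and 1, Epcam, had an unadjusted p under 0.05. Their sum, mostly the enamel gene Amelx, was 112 to 2535 in MSC and 917 to 2259 in TAC, and Epcam, Cdh1 and Trp63 had no read in MSC replicate 3. All 4 Schwann cell markers tested had log2 ratios below 0, none past the adjusted threshold and 1, Sox10, with an unadjusted p under 0.05, and the list summed to 20.2 to 43.2 in MSC and 6.09 to 19.2 in TAC. Of the 10 dental mesenchyme markers, the markers of the studied tissue, 7 had log2 ratios below 0, with a median of -0.82, and 4 had all MSC values higher and 2 all TAC values higher. None passed the adjusted threshold in limma and 4 had an unadjusted p under 0.05, 3 higher in MSC and 1 in TAC, with sums of 2642 to 10687 in MSC and 8692 to 11930 in TAC. Of 6 macrophage and 5 odontoblast markers none had an unadjusted p under 0.05 in limma, with sums of 65.2 to 180 and 532 to 5150 in MSC and of 38.9 to 124 and 3311 to 4648 in TAC. Smooth muscle and endothelial cells are known to express Ctgf strongly. The part of these cells in the Ctgf difference was not tested, and in such bulk samples fewer cells of a type cannot be told apart from less RNA per cell.

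**Figure D2:**
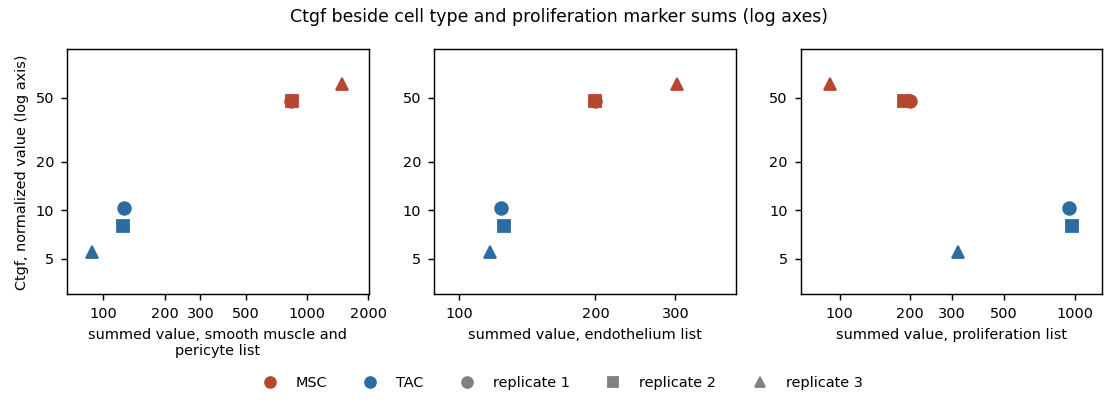
Ctgf (vertical log axis, normalized value) against the summed normalized value of smooth muscle and pericyte, endothelial and proliferation markers (horizontal log axes) in each library. MSC libraries (red) hold 831 to 1489 of the smooth muscle sum beside 47.5 to 61.3 of Ctgf, and TAC libraries (blue) 88.6 to 126 beside 5.49 to 10.3.

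The other targets had smaller log2 ratios than Ctgf, and neither passed the test. Cyr61 (now Ccn1, chromosome 3, 145646976 to 145649981, minus strand), the closest functional partner of Ctgf among the CCN proteins and an immediate early gene, stood at 5.84, 7.85 and 3.47 in MSC against 3.20, 3.74 and 0.770 in TAC. Within each replicate number MSC was above TAC (unadjusted p 0.0509 and adjusted p 0.247 with the replicate block in limma), and the groups overlapped in that MSC replicate 3 was below TAC replicate 2. Its log2 ratio was -0.98 (SE 0.61, adjusted p from limma 0.590), and the separate values were -0.80 for the pair and -1.34 for replicate 3. Counts behind Cyr61 were low, at 145 to 520 estimated reads, and the size of its ratio depended on the processing. It was -1.98 in limma voom (unadjusted p 0.0336, adjusted p 0.319), -0.50 with a pseudocount of 5 and -0.54 without TAC replicate 3. Amotl2 (chromosome 9, 102716672 to 102733418, plus strand), a scaffold protein that is induced by YAP and in turn holds YAP at cell junctions, stood at 27.3, 37.3 and 16.9 in MSC against 31.6, 32.8 and 9.38 in TAC. Its values lay in one range in both groups, with replicate 3 lowest in each. A log2 ratio of -0.25 resulted (SE 0.54, 95% interval -1.53 to 1.02, limma adjusted p 0.914), from 0.012 for the pair and -0.79 for replicate 3.

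Whether the 3 targets kept their proportion was read within each library, where the scale factor cancels. Per kilobase of exon, the ratio of Ctgf to Amotl2 was 3.84, 2.80 and 7.96 in MSC and 0.717, 0.532 and 1.29 in TAC. Every MSC ratio was above every TAC ratio. The ratio of Ctgf to Cyr61 was 5.78, 4.26 and 12.5 in MSC and 2.27, 1.496 and 5.04 in TAC, with MSC above TAC within each replicate number and TAC replicate 3 above MSC replicate 2.

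The promoters of the members were read for the letters that TEAD proteins recognise. They bind the letters GGAATG, which read CATTCC on the other strand, and both were searched in the 250 bases before each transcript start in RefSeq (GRCm38.p6, the assembly of mm10). Promoters were found for 8 of the 10 members, without Ctgf and Tead1. Cyr61 and Amotl2, the targets with a promoter sequence, each held 1 match, and Yap1, Wwtr1 and Tead3 held matches in their own promoters. The whole promoter stretch of Cyr61 (chr3:145649986-145650235, minus strand) is shown as that of a CCN target, and the first base of its match lies 103 bases before the start. Capitals mark the match, and the sequence runs 5′ to 3′.
Cyr61: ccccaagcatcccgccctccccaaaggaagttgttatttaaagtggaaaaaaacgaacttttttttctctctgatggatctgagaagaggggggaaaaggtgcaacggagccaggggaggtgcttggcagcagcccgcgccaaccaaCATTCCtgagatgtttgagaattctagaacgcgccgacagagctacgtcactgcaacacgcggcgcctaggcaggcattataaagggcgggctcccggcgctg

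Stretches of 30 bases around the matches of the other members are shown for comparison. In the Amotl2 stretch (chr9:102717727-102717756, plus strand) the match has its first base 65 bases before the RefSeq start, which lies inside the deposited gene. In the Yap1 stretch (chr9:8004720-8004749, minus strand) the match begins 141 bases before the start. It begins 136 bases before the first of 2 starts in the Wwtr1 stretch (chr3:57576029-57576058, minus strand) and 182 bases before the first of 3 starts in the Tead3 stretch (chr17:28350970-28350999, minus strand).
Amotl2: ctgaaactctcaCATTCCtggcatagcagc
Yap1: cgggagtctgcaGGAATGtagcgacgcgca
Wwtr1: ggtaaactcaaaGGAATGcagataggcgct
Tead3: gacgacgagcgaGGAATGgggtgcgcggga

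Tead3 held 2 further CATTCC matches before its second start. Tead2, Lats1 and Lats2 held none in these windows. In all, 5 of 8 member genes had a match in at least 1 window, where 12.6% of all promoter windows and 14.4% of all genes did. The share was 33.3% both among the other YAP targets described further on (4 of 12) and among the upstream kinases and adaptors (5 of 15). Of the 5 genes with a match, Tead3 had groups that did not overlap and the other 4 had groups that did. Without a match, Tead2 had groups apart, and Lats1 and Lats2 had groups that overlapped. With 8 genes and no Ctgf promoter, whether a match goes with a pattern between MSC and TAC cannot be read. A match describes the letters of the window and is no measured binding site.

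The coactivators did not separate the groups. Yap1 (chromosome 9, 7931999 to 8004596, minus strand) stood at 76.02, 80.05 and 98.4 in MSC against 90.3, 83.5 and 51.5 in TAC. In replicates 1 and 2 TAC was slightly higher and in replicate 3 MSC was higher, so the groups overlapped. For Yap1 the log2 ratio was -0.21 (SE 0.31, 95% interval -0.93 to 0.52, adjusted p from limma 0.864), made of 0.15 for the pair and -0.92 for replicate 3. Wwtr1 (chromosome 3, 57455649 to 57575910, minus strand), which encodes TAZ, stood at 49.9, 52.3 and 4.27 in MSC against 55.02, 54.7 and 20.8 in TAC. Replicate 3 was low in both groups and lowest in MSC, on 640 estimated reads. A log2 ratio of 0.75 was fitted (SE 0.92, 95% interval -1.40 to 2.90, limma adjusted p 0.818), from 0.10 for the pair and 2.05 for replicate 3, and the fit gave -0.35 without MSC replicate 3. Intervals this wide hold changes of more than 2-fold in either direction for Wwtr1.

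The TEAD factors gave the second pattern. Tead3 (chromosome 17, 28331671 to 28350817, minus strand) stood at 34.1, 37.7 and 40.08 in MSC against 18.3, 17.02 and 21.1 in TAC. All MSC values were above all TAC values, and no other member had a smaller standard error. Means of 37.3 ± 3.02 for MSC and 18.8 ± 2.09 for TAC (SD, n = 3 each) made Tead3 1.98 times higher in MSC, a log2 ratio of -0.95 (SE 0.27, adjusted p 0.216 and unadjusted p 0.00886 in limma). The pair of replicates 1 and 2 gave -0.98 and replicate 3 gave -0.89. Tead2 (chromosome 7, 45215753 to 45233644, plus strand), known as the TEAD of embryonic and progenitor cells, stood at 34.3, 34.4 and 73.04 in MSC against 20.3, 19.3 and 31.6 in TAC. Replicate 3 was about 2 times above replicates 1 and 2 in MSC and higher in TAC too, and within each replicate number MSC was above TAC. Tead2 had a log2 ratio of -0.90 (SE 0.39, adjusted p 0.434 and unadjusted p 0.0545 in limma), from -0.76 for the pair and -1.18 for replicate 3.

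Neither Tead2 nor Tead3 passed over all genes in the test of the 6 libraries. With the replicate block their adjusted p-values were 0.101 and 0.0913. With a term that sets replicate 3 apart from replicates 1 and 2 they were 0.0206 and 0.0155, in a fit where 1814 of 15391 genes passed. Tead1 (chromosome 7, 112679318 to 112906807, plus strand), the broadly expressed member, did not share the pattern, with 85.5, 83.3 and 31.02 in MSC and 68.5, 67.97 and 36.6 in TAC. Its replicate 3 was low in both groups. For Tead1 the ratio was -0.12 (SE 0.47, limma adjusted p 0.960), made of -0.30 for the pair and 0.23 for replicate 3. Tead4, the TEAD outside the 10 members, was 2.90, 1.88 and 0.00666 in MSC and 1.45, 1.70 and 1.42 in TAC, where 0.00666 is the value of a gene without a read.

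Levels of different genes were compared per kilobase of exon. On that scale the summed TEAD level was 19.4, 19.5 and 23.5 in MSC and 12.4, 12.05 and 12.8 in TAC, so the sums did not overlap. For Tead1 and Tead2 the share of the sum differed more between replicate 3 and the pair than between the groups. Tead2 held 37.1%, 36.9% and 64.9% of it in MSC and 34.2%, 33.5% and 51.4% in TAC. Tead1 held 31.5% to 32.6% in MSC replicates 1 and 2 and 40.6% to 41.6% in TAC replicates 1 and 2, against 9.72% and 21.02% in replicate 3. The share of Tead3 was 25.4% to 28.9% in MSC and 21.03% to 24.5% in TAC, so the groups did not overlap. Tead4 held at most 4.17%.

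**Figure D3:**
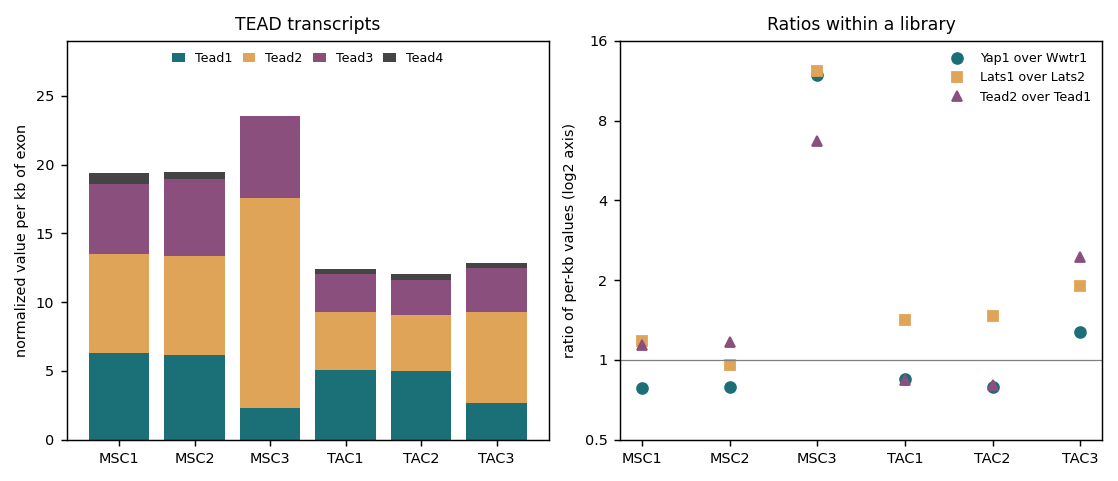
Left, normalized value per kilobase of exon of each TEAD gene, stacked from 0, in each library. Right, ratios of per-kilobase values within a library on a log2 axis. The stacks reach 19.4 to 23.5 in MSC and 12.05 to 12.8 in TAC, and the ratios of Yap1 to Wwtr1 and Lats1 to Lats2 near 12 belong to MSC replicate 3.

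The LATS kinases, which stand directly above YAP and TAZ, overlapped between the groups. Lats1 (chromosome 10, 7681214 to 7716460, plus strand) stood at 63.4, 56.3 and 61.6 in MSC against 57.4, 60.04 and 16.2 in TAC. A single library, TAC replicate 3, stood apart from the other 5. The ratio of -0.64 (SE 0.50, limma adjusted p 0.688) came to -0.025 in the pair, -1.86 in replicate 3 and -0.039 without TAC replicate 3. Lats2 (chromosome 14, 57689662 to 57758388, minus strand), which is itself a YAP target and so part of a feedback loop, stood at 51.4, 56.3 and 4.799 in MSC against 38.7, 39.3 and 8.14 in TAC. Both replicate 3 libraries were far below the others. Lats2 had a log2 ratio of -0.08 (SE 0.99, 95% interval -2.41 to 2.24, limma adjusted p 0.987), from -0.45 for the pair and 0.66 for replicate 3. The deposited gene model of Lats2 reaches down to 57642077, past the annotated 3′ end of this minus-strand gene, and Gm49361, a gene on the same strand, shares 2955 exonic bases with it, so its values can include reads of that gene.

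MSC replicate 3 had the most uneven pairs of relatives. The ratio of Yap1 to Wwtr1 per kilobase was 0.786 and 0.791 in MSC replicates 1 and 2, 0.847, 0.789 and 1.28 in TAC, and 11.9 in MSC replicate 3. The ratio of Lats1 to Lats2 was 0.954 to 1.18 in MSC replicates 1 and 2, 1.42 to 1.91 in TAC and 12.3 in MSC replicate 3. In that library 43.1% of the listed genes had no read, against 6.89% to 8.36% in replicates 1 and 2 and 28.3% in TAC replicate 3. The part of this in the ratios was not tested.

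Ordered by mean level per kilobase, Ctgf stood first of the 10 in MSC at 18.2 ± 2.76 (SD, n = 3) and was above every other member in each MSC library. Tead2 at 9.87 ± 4.66, Yap1 at 9.16 ± 1.29, Lats1 at 8.28 ± 0.509 and Wwtr1 at 7.43 ± 5.66 (SD, n = 3 each) followed within their spread. Tead3, Lats2, Tead1 and Amotl2, at 5.55 down to 4.32, also lay within their spread, and Cyr61 had the lowest mean at 2.83 ± 1.09. The order of these means differed between libraries. In MSC replicate 3 Wwtr1 at 0.893 and Lats2 at 0.688 were below Cyr61 at 1.72, and the mean of Tead2 was raised by that library, at 15.3 against 7.17 and 7.18. In TAC the order was led by Wwtr1 at 9.10 ± 4.11 and Yap1 at 8.11 ± 2.24, which overlapped, while Tead2 led in TAC replicate 3 at 6.61. Lats1 came next at 6.11 ± 3.37, then Tead2, Tead1, Lats2 and Amotl2 at 4.96 down to 3.91. Tead3 at 2.80 ± 0.311 and Ctgf at 2.76 ± 0.841 were alike in TAC, and Cyr61 was again lowest at 1.27 ± 0.783. Within the single TAC libraries Ctgf was above Tead3 in replicates 1 and 2 and below it in replicate 3, and above Cyr61 in each.

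The difference between TAC and MSC was itself compared between replicate 3 and the pair of replicates 1 and 2, called library sets here. With 1 library a group in replicate 3, the limma interaction has to assume that replicate 3 would vary as little as replicates 1 and 2, and under that assumption 57.2% of all genes and 8 of 10 members were past an adjusted p of 0.05, so the count says little about the members. The change in log2 ratio from the pair to replicate 3 was 0.09 for Tead3 and -0.53 for Cyr61, the members not past it. The direction itself was opposite in the sets for Yap1, Tead1, Lats2 and Amotl2, or 4 of 10, where 38.8% of all genes had opposite directions. When replicates 1 and 2 alone were fitted, 6 members passed, Ctgf, Tead1, Tead2, Tead3, Lats2 and Cyr61, all lower in TAC, where 47.4% of all genes passed in either direction and 26% with MSC higher.

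**Figure D4:**
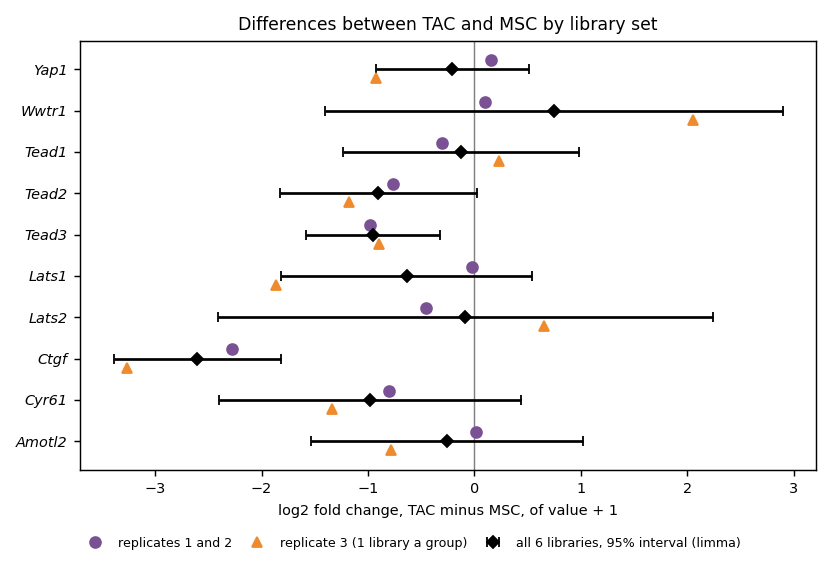
Log2 ratio (horizontal axis, TAC over MSC, of value + 1) of each member over all 6 libraries with its 95% interval (diamonds), in replicates 1 and 2 (circles) and in replicate 3 (triangles, 1 library a group). Ctgf lies at -2.60 with an interval below 0, Tead3 has nearly equal values in both library sets, and Yap1, Tead1, Lats2 and Amotl2 have them on opposite sides of 0.

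Other YAP targets were taken from a general list of 18 genes, of which 17 were measured and tested, all but Ankrd1. In limma 1 of 17 passed the adjusted threshold, lower in TAC, 5 had an unadjusted p under 0.05, all lower in TAC (6.43% of all genes had MSC higher at that level), and 6 had all MSC values above all TAC values (12.2% of all genes did). Their median log2 ratio was -0.87 against 0.026 for all genes, with 12 of 17 below 0, as were 7472 of 15391 genes. The medians were -0.59 for the pair and -0.81 for replicate 3, and -0.41 in the fit without TAC replicate 3. With the replicate block 3 passed, all lower in TAC, where 1.49% of all genes did. The call for Igfbp3, a binding protein of insulin-like growth factors, is not independent evidence, since the study singled it out from these samples. Igfbp3 had a log2 ratio of -5.07 (SE 0.47, adjusted p from limma 0.0151). As with Ctgf, the part of smooth muscle and endothelial cells in the differences of the other YAP targets was not tested.

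Foxf2, a forkhead factor of mesenchyme around vessels and gut, was 83.4, 76.01 and 79.4 in MSC and 28.1, 26.1 and 16.9 in TAC. All MSC values were above all TAC values, and the log2 ratio was -1.74 (SE 0.29, limma adjusted p 0.0764, and 0.0477 with the block). Axl, a receptor tyrosine kinase for GAS6, was 79.3, 85.02 and 60.6 in MSC and 32.1, 27.7 and 23.2 in TAC. Axl had a log2 ratio of -1.40 (SE 0.28, limma adjusted p 0.108, and 0.0459 with the block), from -1.43 for the pair and -1.35 for replicate 3. Myof, a membrane repair protein, was 72.4, 66.8 and 24.0 in MSC and 22.2, 19.996 and 10.3 in TAC, at a log2 ratio of -1.498 (SE 0.51, limma adjusted p 0.305). Its groups were apart by a small gap only, between MSC replicate 3 and TAC replicate 1. Fjx1, chosen after its values were seen as the target with all TAC values above all MSC values, was 4.19 to 6.49 in MSC and 7.62 to 11.3 in TAC (log2 ratio 0.71, limma adjusted p 0.583).

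Among the paralogs of the targets, Nov, a CCN protein known from vessel walls, was 5.57, 6.03 and 36.4 in MSC and 0.591, 0.144 and 0.00758 in TAC. The groups did not overlap, and the log2 ratio was -3.29 (SE 0.78, limma adjusted p 0.159), a size that depends on the pseudocount because TAC replicate 3 held about 1 read. Wisp1, a CCN gene known as a WNT target, was 32.0, 39.8 and 14.1 in MSC and 38.3, 34.4 and 39.3 in TAC, and overlapped. Wisp2 and Wisp3 were under the mean of 1 required for testing. Amot and Amotl1, relatives of Amotl2, had log2 ratios of 0.20 and 0.32 (limma adjusted p 0.944 and 0.941).

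The kinases, adaptors and upstream genes of the pathway gave no call in either direction. All 19 on the list were tested and none passed the adjusted threshold in limma, while 1 had an unadjusted p under 0.05. In limma voom the counts were 0 and 3. Over all 15391 genes, 11.9% had an unadjusted p under 0.05 in the first fit and 2316 genes in voom. The list's median log2 ratio was 0.17 against 0.026 for all genes, from -0.056 for the pair and 0.59 for replicate 3. Its side depended on single libraries, with -0.40 without MSC replicate 3, -0.07 without TAC replicate 1 and -0.10 without TAC replicate 2. With the replicate block 4 of 19 genes had an unadjusted p under 0.05, 2 higher in MSC and 2 in TAC, near the 20.4% of all genes in either direction and 10.9% with MSC higher. No gene had all MSC values above all TAC values, and 3 had all TAC values above, where 12.3% of all genes did. Frmd6, a FERM protein that activates the kinase relay at the membrane, was 40.6, 42.8 and 36.1 in MSC and 87.6, 88.7 and 52.4 in TAC, giving a log2 ratio of 0.88 (SE 0.30, limma adjusted p 0.304). Mob1a, the cofactor that switches on LATS, was 24.04, 21.3 and 12.01 in MSC and 35.0, 35.3 and 26.9 in TAC, at 0.78 (SE 0.35, limma adjusted p 0.447).

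Taok3, a kinase above the relay, and Wtip, an Ajuba-family LIM protein, are named after their values were seen as the genes higher in MSC under the block. Taok3 was 44.0, 44.6 and 16.9 in MSC against 23.9, 19.996 and 7.51 in TAC, lower in TAC in every same-numbered pair (log2 ratio -1.01, limma adjusted p 0.537, and 0.092 with the block). Wtip was 17.6, 17.9 and 49.5 against 13.5, 11.7 and 25.9, lower in TAC in every pair as well (-0.61, limma adjusted p 0.703, and 0.244 with the block).

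The third gene with TAC higher, Wwc1, had no read in MSC replicate 3 and 6.74 to 7.55 in the other libraries. The kinases Stk3 and Stk4 and the tumor suppressor Nf2, named here for their roles after their values were seen, had log2 ratios of 0.38, -0.28 and -0.05 (limma adjusted p 0.890, 0.883 and 0.984). Of the vestigial-like genes that compete with YAP for TEAD, Vgll3 was 3.30 and 5.94 in MSC replicates 1 and 2, 0.197 and 0.0959 in TAC replicates 1 and 2 and without a read in replicate 3 of both groups. Vgll4 was 32.0, 28.3 and 49.2 in MSC and 56.6, 56.9 and 34.0 in TAC, with TAC higher in replicates 1 and 2 and MSC higher in replicate 3.

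**Figure D5:**
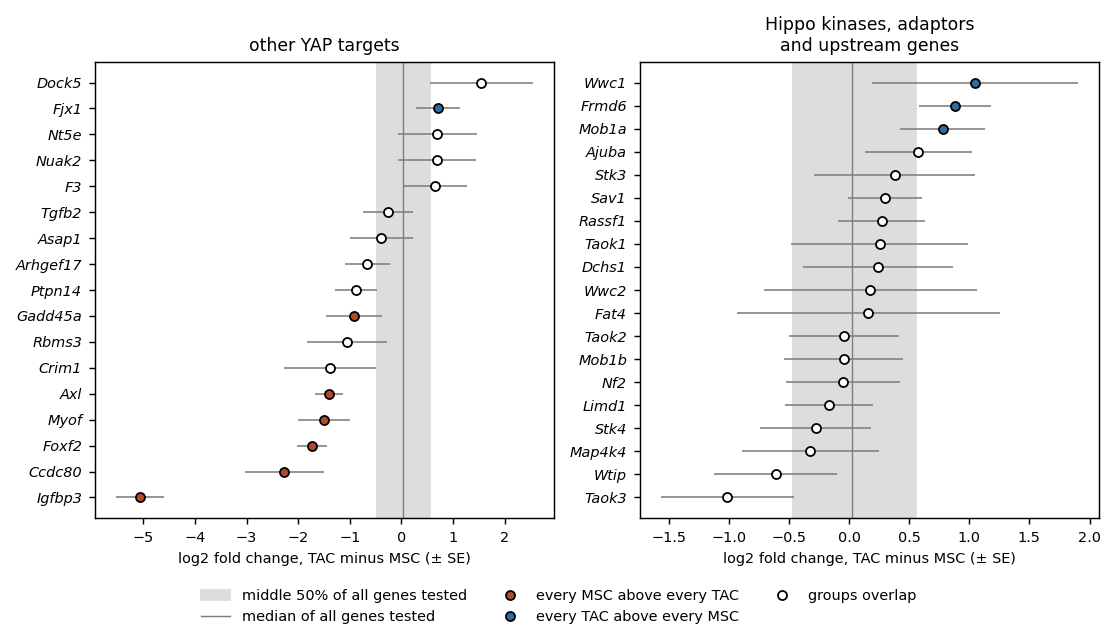
Log2 ratio ± SE (horizontal axis, TAC over MSC) of the other YAP targets (left) and of the kinases, adaptors and upstream genes (right), with filled points where the groups do not overlap and a grey band for the middle 50% of all genes tested. Of the targets 6 have all MSC values higher and 1 all TAC values higher, and of the upstream genes 0 and 3.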

How the data were processed

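Reads of 75 cycles were trimmed and aligned by the authors to mm10 with TopHat2 2.0.8, after CASAVA 1.8.2; Partek is also named in the submitters' notes. Their methods name RPKM, but the deposited table holds a signal that behaves as an estimated read number plus 1 divided by a size factor per library, without division by gene length. The counting tool and use of strand were not given in the sources used here. Values were taken as log2(value + 1) and fitted with limma 3.58.1 in R 4.3.3 (empirical Bayes with variance trend, two-sided) over 15391 genes whose mean value reached 1, and p-values were adjusted over all of them. This log-scale test was planned for normalized values and kept for the unit found. Read numbers were estimated per library from its lowest value, taken as that of a gene without a read, by division and subtraction of 1, and 75.6% to 94.6% of low values (under 50 reads) were whole within 0.02, so no count model was used except voom as an alternative. Intervals from the fit cover the spread between libraries.

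The members and gene lists were chosen with earlier results of these data known. The naming rule covered the members, their paralogs, Gli1, Axin2, Mki67 and Igfbp3. From each list it took the genes with an unadjusted p under 0.05 in limma, up to the 4 smallest and at least the 2 smallest. The rule was not kept in full. Some genes under it, such as Acta2, Birc5 and those of dental mesenchyme, macrophages and odontoblasts, appear only in list counts or sums. Some outside it, such as Wwc1, Trp63, Amelx and Des, are named. Replicates 1 and 2 of a group were alike but differed by more than counting noise (mean chi-square per gene of 9.83 in MSC and 8.15 in TAC, where counting noise alone gives 1). Deviations from the group means correlated across genes by 0.477, 0.465 and 0.517 for same-numbered samples. Numbers 1 and 2 crossed gave 0.462 and 0.48, so these values do not show that numbers 1 and 2 join samples. The methods speak of 3 pairs of samples, so the replicate number was used as a block in an alternative. Simulated data with known changes were used to test the fits. They kept the read depth of each library but no other difference of replicate 3, so they do not test the fits under that difference. Annotation was GENCODE M21, with per-kilobase values over the union of exons. Alternatives were another pseudocount (5 or 0.25), filters, scalings, variance models, library terms and each sample left out.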

Additional observations from a re-analysis of the deposited data

Results flagged for a closer look

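The difference between TAC and MSC in replicate 3 was set against that in replicates 1 and 2. Replicate 3 has 1 library a group, so the limma interaction takes its error from the spread between replicates 1 and 2 alone and assumes that replicate 3 would vary as little. Under that assumption 8 members had an adjusted p under 0.05, or 7 with a pseudocount of 5, where 57.2% of all genes did. Replicate 3 minus replicates 1 and 2, on the log2 scale, was -1.07 for Yap1, 1.95 for Wwtr1, 0.54 for Tead1, -0.42 for Tead2, -1.84 for Lats1, 1.11 for Lats2, -0.99 for Ctgf and -0.80 for Amotl2. For Ctgf and Tead2 the difference was lower in TAC in both sets and larger in replicate 3. For Lats1 it was near 0 in replicates 1 and 2, and for Wwtr1 it was higher in TAC in both sets.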

How the results depend on the processing

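Of 169 refits of the 10 members, 142 kept the direction and the side of the adjusted threshold. The number of members past it, 1 in the reported fit, was 0 without the variance trend or in limma voom, 3 with the library set as a term and 6 in replicates 1 and 2 only, and it ranged from 0 to 1 when a sample was left out; in the fits with 0, 2 to 3 members had an unadjusted p under 0.05, as did 1029 to 2316 of the 15160 to 15523 genes tested. For the upstream genes the count was 0, with 3 under the library set term and 6 in replicates 1 and 2 only, and 0 in each fit with a sample left out. For the other YAP targets it was 1, with 3 under the replicate block, 7 under the library set term, 11 in replicates 1 and 2 only, 0 in voom, and 0 to 2 with a sample left out. The replicate block changed no call of a member. Over all genes, 65 passed in the reported fit, 229 with the replicate block, 1814 with the library set term, 7433 in replicates 1 and 2 only, 6 in voom, 29 without the variance trend, 38 with a pseudocount of 0.25, 114 after quantile normalization and 0 to 280 with a sample left out. With replicates 1 and 2 only, the error is the spread of 2 near-equal libraries a group.

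Directions turned for 5 members. Yap1 was 0.15 in replicates 1 and 2 only and -0.36 to 0.042 with a sample left out. Amotl2 was 0.012 in replicates 1 and 2 only and -0.55 to 0.30 with a sample left out. Lats2 was 0.094 in voom and -1.16 to 0.63 with a sample left out. The ranges with a sample left out were -0.35 to 1.32 for Wwtr1 and -0.60 to 0.17 for Tead1. Ctgf, Tead2, Tead3, Cyr61 and Lats1 had values below 0 in every refit. The cause was not tested. Cyr61 had the fewest reads of the members.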
